A study of Homo sapiens with 8 samples.

Results

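The results concern the chromatin around 6 human forkhead genes that lie in 2 groups: FOXF1, FOXC2 and FOXL1 on chromosome 16, and FOXQ1, FOXF2 and FOXC1 on chromosome 6. Members are the accessible sites of the authors' 2 lists whose centre falls in 1 Mb of hg19 around either group, chr16:86000001-87000000 or chr6:1000001-2000000. There are 20 such sites of 14191 listed, 15 on chromosome 16 and 5 on chromosome 6. The intervals were chosen by the authors' calls, that is, with the numbers of listed sites in view, so those numbers are a description and carry no test.

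Sites came from ATAC-seq, in which the Tn5 transposase cuts open DNA and tags it for sequencing, in the human embryonic stem cell line H9. The study has 8 samples in 4 groups of 2. Wild-type H9 cells were taken as stem cells (day 0) and as surface ectoderm, the simple epithelium that comes before epidermis, after 7 days with BMP4 at 5 ng/ml plus retinoic acid at 1 uM. Cells of genotype p63-/- were taken after the same 7 days in the same morphogens. A line of genotype TetO:Tp63+/- received doxycycline at 2 ug/ml for 2 days, which induces p63, and was harvested at day 0. The labels used here do not say whether either edited line is a single clone.

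The first list, of 8154 sites, is named for sites opened by the morphogens and is tied by the labels to wild-type cells at day 0 and day 7; its members are called opened sites here. The second, of 6037 sites, is named for sites that the morphogens open and p63 closes, is tied to wild-type and p63-/- cells at day 7, and its members are called p63-closed sites. Neither list is tied to the TetO:Tp63+/- line. Each line of a list holds a chromosome, a start, an end and a numbered name, and no signal, fold or p-value. There is therefore no value per sample, the depth is unknown, no difference between cultures could be tested, and the cell types could not be checked against their markers. That a site opened or closed is the authors' call. The lists do not say which contrast put a site in the p63-closed list and not in the opened list.

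Forkhead proteins are transcription factors that bind DNA through a winged-helix domain, and several of them open or keep open the chromatin they bind. FOXF1 and FOXF2 act mainly in mesenchyme of the lung, gut and palate; FOXC1 and FOXC2 act in mesoderm, neural crest derivatives, the eye and vessels; FOXL1 marks mesenchyme below the gut epithelium; and FOXQ1 acts in epithelia, including the hair shaft and gastric surface. The groups on chromosomes 6 and 16 are commonly viewed as copies of an ancestral forkhead cluster, since FOXF1 pairs with FOXF2 and FOXC2 with FOXC1. In the RefSeq gene table of GRCh38.p14, used here for gene order alone, the protein-coding genes of chromosome 16 run IRF8, FOXF1, MTHFSD, FOXC2, FOXL1 and C16orf95, with the long noncoding RNA gene FENDRR just before FOXF1. Those of chromosome 6 run EXOC2, HUS1B, FOXQ1, LOC124905366, FOXF2, FOXC1 and GMDS, with the noncoding FOXCUT just before FOXC1. Other noncoding genes and pseudogenes of the table are left out here. FENDRR is a noncoding RNA gene beside FOXF1 with roles in lateral mesoderm, IRF8 is a transcription factor of myeloid cells, and GMDS is an enzyme of GDP-fucose synthesis. No hg19 annotation was used, so no site is assigned to a promoter, exon, intron or intergenic stretch below. For the same reason the 6 genes are not placed relative to the sites or to the stretches without a listed site.

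The RefSeq promoter table (GRCh38.p14) matched 3 of the 6 genes, FOXQ1, FOXF2 and FOXC1; FOXF1, FOXC2 and FOXL1 are named only. The 250 bases before each start are shown to let these 3 genes be seen as sequence. Capitals mark matches, on either strand, to AGGTCA (a nuclear receptor half-site, the kind retinoic acid receptors bind), GCCNNNGGC (AP-2), GATAA (GATA factors), TGTTTAC (forkhead) or the p53-family decamer. Their GRCh38.p14 positions must not be set against the hg19 positions of the sites. All 3 genes are on the plus strand. The 250-base windows shown are chr6:1311848-1312097 for FOXQ1, chr6:1389326-1389575 for FOXF2 and chr6:1609665-1609914 for FOXC1.
FOXQ1: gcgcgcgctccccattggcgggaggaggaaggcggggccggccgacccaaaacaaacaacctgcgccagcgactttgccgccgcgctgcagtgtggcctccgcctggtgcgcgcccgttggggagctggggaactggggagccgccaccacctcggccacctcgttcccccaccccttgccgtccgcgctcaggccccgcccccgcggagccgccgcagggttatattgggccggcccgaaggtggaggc
FOXF2: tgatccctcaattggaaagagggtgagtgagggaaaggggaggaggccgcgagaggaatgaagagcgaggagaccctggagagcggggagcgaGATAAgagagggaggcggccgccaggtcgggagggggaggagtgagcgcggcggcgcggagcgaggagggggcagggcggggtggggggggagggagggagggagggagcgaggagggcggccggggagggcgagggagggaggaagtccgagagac
FOXC1: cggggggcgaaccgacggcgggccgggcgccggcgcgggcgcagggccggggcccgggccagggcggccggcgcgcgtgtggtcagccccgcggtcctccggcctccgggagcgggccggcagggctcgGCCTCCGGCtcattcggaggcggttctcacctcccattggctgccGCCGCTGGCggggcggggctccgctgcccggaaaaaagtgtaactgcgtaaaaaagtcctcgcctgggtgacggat

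These promoters were rich in G and C. FOXC1 had 76.8% GC and 37 CpG dinucleotides, FOXQ1 74% and 29, and FOXF2 70.8% and 20, against medians of 58% and 11 over 35116 promoters cut to the same length. FOXC1 held 2 matches to GCCNNNGGC, which do not overlap, a motif found in 19.8% of all promoters. The motif shares given here are over promoters of any GC content. They were not matched to promoters this rich in G and C, so they are no fair background for these 3. FOXF2 held 1 match to GATAA, found in 20.4%. FOXQ1 held no match to any of the 5 motifs. AGGTCA (12.1% of all promoters), TGTTTAC (2.98%) and the p53-family decamer (5.57%) were in none of the 3. A match is a run of letters and not a bound site. The absence of one covers this window and the motif forms as written alone. Looser forms, those of the forkhead motif included, were not searched.

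The chromosome 16 interval was filled almost wholly from the opened list. It held 14 opened sites and 1 p63-closed site, and with them 23.1 kb, or 2.31%, of its sequence was listed. Both lists number their sites from what appears to be 1 running catalogue of regions, which reaches 1838350, and about 702 of those entries fall in this interval. Entries come at 1 per 1424 bp here, closer than the median widths of listed sites, 1597 bp (opened) and 1531 bp (p63-closed). Unlisted entries may thus differ in kind from listed sites, so shares of entries are not shares of accessible sites. Opened sites made up 1.99% of these entries, where 0.444% of the whole catalogue is listed as opened. As a density that is 19.9 opened sites per 1000 entries (exact 95% Poisson interval 10.9 to 33.4, counting error only), against 4.44 over the catalogue. The p63-closed site made up 0.142% of the entries, where 0.328% of the catalogue is listed as p63-closed, a density of 1.42 per 1000 entries (0.0360 to 7.93) against 3.28. These intervals describe the counts the interval was chosen on and test nothing.

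Among 3037 windows of 1 Mb, 5 held at least 14 opened sites, which is 0.165% of windows, and the chromosome 16 interval was 1 of 2 with exactly 14. The median window had 2 opened and 1 p63-closed site, and the fullest had 18 opened. On chromosome 16 no other of the 90 windows came level; the next, from 57000001 to 58000000, held 11 opened and 2 p63-closed sites. A near absence of p63-closed sites beside many opened ones was not rare: of the 60 windows with 10 or more opened sites, 27 had at most 1 p63-closed site, and over these 60 the p63-closed count ran from 0 to 11 with a median of 2.

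**Figure D1:**
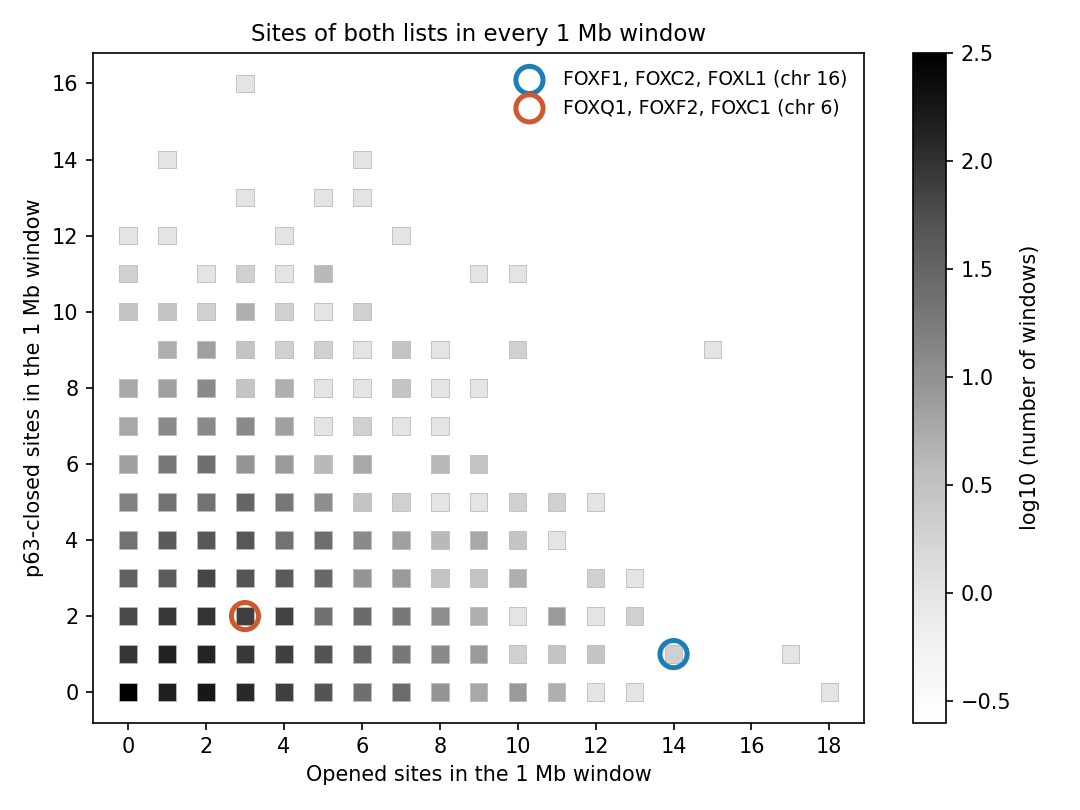
Each square is a combination of opened sites (x axis) and p63-closed sites (y axis) found in a 1 Mb window, shaded by the log10 number of windows with it, over 3037 windows. The circled chromosome 16 interval stands far right at 14 opened and 1 p63-closed, and the circled chromosome 6 interval, at 3 and 2, lies among the commonest combinations.

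The chromosome 6 interval lay near the background of the catalogue by the same measures. It held 3 opened and 2 p63-closed sites over 8.19 kb of listed sequence, 0.819% of the interval. Opened sites were 0.432% of its roughly 694 catalogue entries and p63-closed sites 0.288%, both near the whole-catalogue 0.444% and 0.328%. Its densities were 4.32 opened sites per 1000 entries (exact 95% interval 0.892 to 12.6) and 2.88 p63-closed sites (0.349 to 10.4). At least 3 opened sites were found in 1340 windows, or 44.1%, and 77 windows held just this pair of counts. Per listed site, the p63-closed share was 40% on chromosome 6 (exact Clopper-Pearson 95% interval 5.27 to 85.3%) and 6.67% on chromosome 16 (0.169 to 31.9%), against 42.5% of all listed sites. The intervals cover counting error alone and treat neighbouring sites as independent. No comparison is drawn from them, because both groups of genes were chosen with their counts known.

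In its mix of lists, the chromosome 16 interval held more opened and fewer p63-closed sites than the Mb on either side. It was chosen with its own counts known, so this is a description. In the Mb before the interval there were 6 opened and 2 p63-closed sites, and in the Mb after it 2 opened and 5 p63-closed. Just outside the limits, the nearest listed site before was opened, at chr16:85745802-85746999, and the nearest after was p63-closed, at chr16:87132554-87135031. The outermost members inside were both opened, at chr16:86002539-86004995 and chr16:86992126-86993927. The interval ends 2.71 Mb before the last listed site of chromosome 16. Over all chromosomes the last 5 windows had a p63-closed share of 25.8% (26.4% without this interval). The other windows, those at the starts of chromosomes included, had 43.2%, and chromosome 16 as a whole had 38.5%. The part of the interval's place near the end of its chromosome in the mix was not tested.

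Within the chromosome 16 interval the sites formed 2 wings around an empty middle. The left wing had 7 sites, all opened, between 86002539 and 86418324, and the right wing had 8, of which 7 were opened, between 86805678 and 86993927. Between them lay 387 kb without a listed site, edge to edge. The site numbers skip 260 values there, 1 per 1490 bp, close to the 1424 bp per number of the interval. Gaps of this width are common, since 15.4% of all neighbouring pairs on the genome are at least as far apart. The lists give no accessibility for what they leave out, so the gap does not show whether its chromatin was open.

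**Figure D2:**
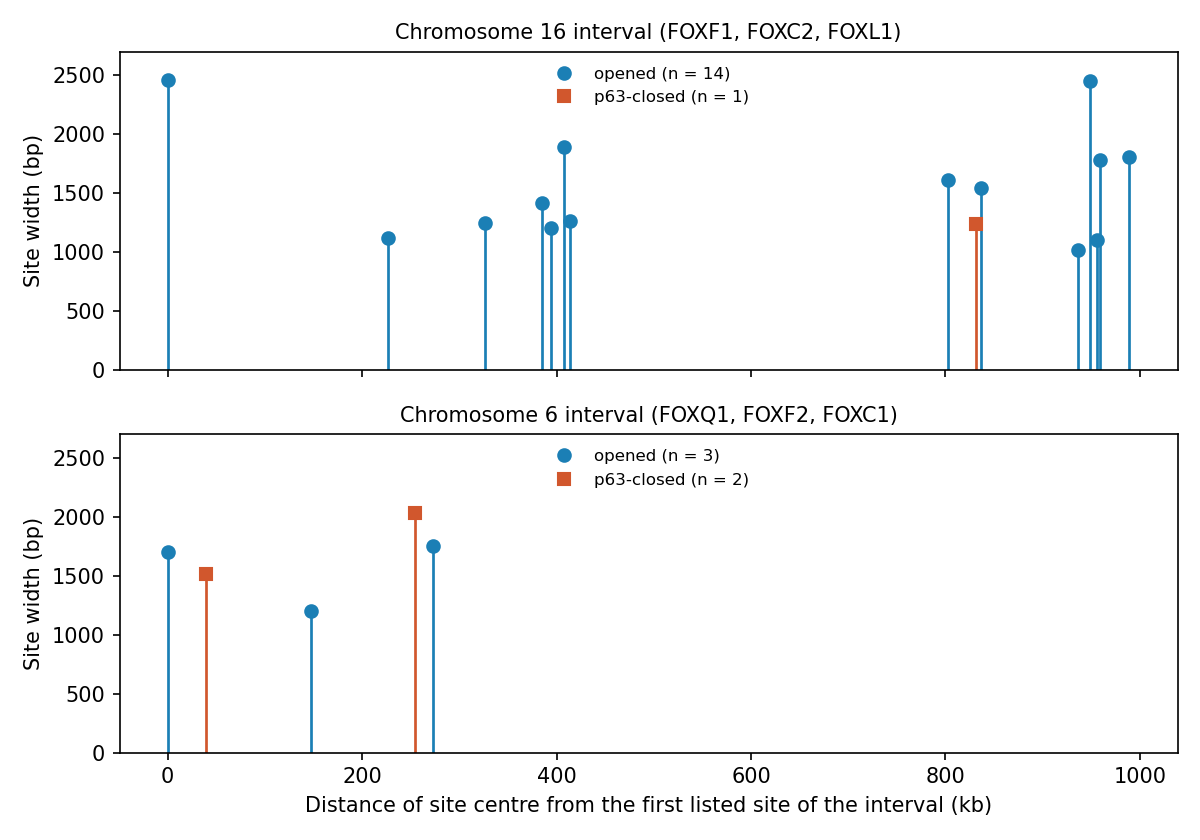
Every member site is drawn at the distance of its centre from the first listed site of its interval (x axis, kb), with its width as the height (y axis, bp) and its list as the colour and marker. On chromosome 16 the sites stand in 2 wings with no site between 414 and 803 kb, and on chromosome 6 the 5 sites lie within 273 kb and alternate between lists.

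In the left wing, 3 opened sites stood apart. The first, chr16:86002539-86004995, was 2457 bp wide, the widest of all 20 members, and 86.9% of opened sites were no wider. The next lay 226 kb further on, at chr16:86229504-86230621, and the third another 99.8 kb on, at chr16:86329218-86330459; both were narrow, at 1118 and 1242 bp. The wing ended in a tight group of 4 opened sites within 30.5 kb. These were chr16:86387820-86389234 (1415 bp wide), chr16:86397520-86398723 (1204 bp), chr16:86410763-86412649 (1887 bp) and chr16:86417064-86418324 (1261 bp). Their centres were 9.59, 13.6 and 5.99 kb apart. The group spans 26 catalogue numbers, of which 4 are listed.

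The right wing began with the interval's only mixed group, 3 sites within 35.7 kb. An opened site at chr16:86805678-86807291 (1614 bp) was followed 28.3 kb later by the p63-closed site, chr16:86834189-86835424 (1236 bp), and 5.84 kb after that by an opened site at chr16:86839876-86841417 (1542 bp). The last of these carries the catalogue number directly after the p63-closed site, with 4451 bp between their edges. Sites with consecutive numbers were thus placed in different lists.

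The largest group closed the interval, with 5 opened sites and no p63-closed site within 54.1 kb. It ran chr16:86939826-86940845 (1020 bp, the narrowest member), chr16:86951710-86954159 (2450 bp), chr16:86958901-86959999 (1099 bp), chr16:86961832-86963614 (1783 bp) and chr16:86992126-86993927 (1802 bp). The closest pair of all members is in it, the third and the fourth of these sites, whose centres were 3.27 kb apart with 1832 bp between their edges. Joining all listed sites of the genome wherever neighbouring centres were at most 50 kb apart gave 9315 groups, single sites counted. Of these, 2876 (30.9%) had 2 or more sites, 238 (2.56%) had at least 5 sites, and 38 (0.408%) had at least 5 opened sites with no p63-closed one. Counted by site, 9.97% of all listed sites lay in groups of at least 5. For the group of 4 in the left wing, the matching figures are 477 groups (5.12%) with at least 4 sites, and 90 (0.966%) of opened sites alone. Groups of at least 4 held 16.7% of all listed sites. The interval was chosen with its counts of both lists known, so these shares are a description only.

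Spacing on chromosome 16 was close apart from the wide gaps. The median distance between neighbouring centres was 21.0 kb, against 96.4 kb over 14168 pairs on the genome, and 9 of its 14 pairs (64.3%) were at most 50 kb apart, against 34.4%. In 12 of 14 pairs (85.7%) both sites belonged to the same list, which 61.5% of pairs on the genome did, with 8 opened sites in a row before the p63-closed site and 6 after it. A close spacing follows in part from the high count for which the interval was chosen. The high same-list share and the long runs follow from its having 1 p63-closed site among 15. They add nothing to those counts.

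On chromosome 6 all 5 sites lay at or beyond 1630379. They ran in strict alternation. An opened site at chr6:1630379-1632080 (1702 bp) was followed 39.7 kb on by a p63-closed site at chr6:1670213-1671723 (1511 bp). A further 108 kb on came an opened site at chr6:1778199-1779399 (1201 bp), then after 107 kb a p63-closed site at chr6:1884395-1886422 (2028 bp) and after 19.1 kb an opened site at chr6:1903633-1905382 (1750 bp). None of the 4 pairs came from the same list. The next listed site outside, at chr6:2097398-2098216, was p63-closed and kept the alternation. With 4 pairs, this order is a description only.

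Before the first of them, chromosome 6 had no listed site for 1068 kb, back to an opened site that ended at 562373. Of the neighbouring pairs on the genome, 274 (1.93%) are at least as far apart. Counted by window instead, 317 of the 3037 windows of 1 Mb held no listed site. The interval was chosen with its counts known, so the width of this stretch is a description only. The site numbers skip 727 values in the stretch, 1 per 1469 bp; if each number stands for a candidate region, these are in neither list. On this chromosome 2 listed sites came before the interval, both opened, and the Mb after it held 1 opened and 2 p63-closed sites. The 2 empty stretches, 387 kb on chromosome 16 and 1068 kb on chromosome 6, skip site numbers at near the same rate per bp.

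**Figure D3:**
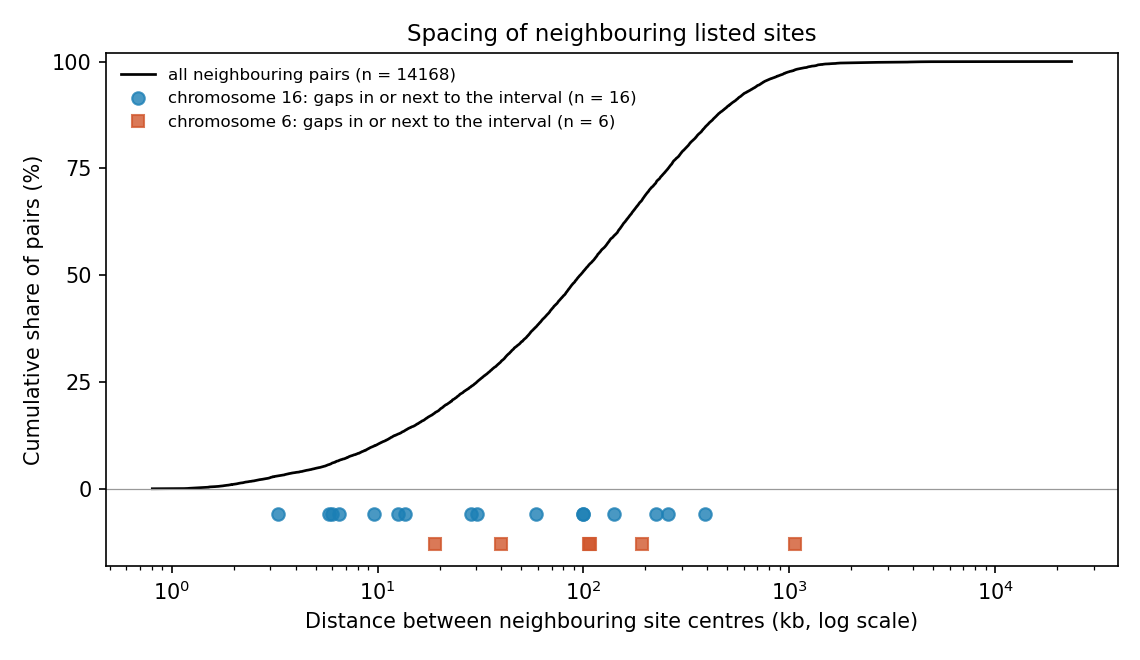
The line gives the cumulative share (y axis, %) of all 14168 pairs of neighbouring listed sites against the distance between their centres (x axis, kb, log scale), and the points below 0, placed there for display, are the 16 distances in or next to the chromosome 16 interval and the 6 for chromosome 6. The chromosome 16 points reach down to 3.27 kb and up to 389 kb, while the chromosome 6 points start at 19.1 kb and include the gap of 1.07 Mb.

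Member sites were about as wide as listed sites in general. The median width was 1415 bp on chromosome 16 (range 1020 to 2457 bp) and 1702 bp on chromosome 6 (1201 to 2028 bp). The whole lists had medians of 1597 bp (opened) and 1531 bp (p63-closed). For opened members alone the median was 1478.5 bp on chromosome 16 and 1702 bp on chromosome 6. The 3 p63-closed members were 1236, 1511 and 2028 bp wide, within the range of the 17 opened ones. Wide and narrow sites stood side by side, as in the last group of chromosome 16, where the second site was 2450 bp and the third 1099 bp.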

How the data were processed

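The authors' 2 deposited BED lists hold coordinates on hg19, with no score or count. Builds hg19 and GRCh37 and, with no version, DESeq2, MACS2, Bowtie2, SAMtools and FastQC are named in the submitters' processing notes. How peaks were called and thresholds set, and whether replicates were pooled, is not given in the sources used here. Per the labels' protocols, libraries were sequenced deeply only when their enrichment at transcription start sites passed a set score.

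Positions were made 1-based. A site belongs to an interval by its centre. Windows of 1 Mb start at whole Mb and run to the last listed site of each chromosome (3037 windows, 2720 with a listed site). The highest site number, 1838350, was taken as the catalogue's size, and entries in a window were interpolated between listed sites. Groups join neighbouring centres at most 50 kb apart. Intervals are exact, at 95%. Counting was tested on simulated lists with known answers. Members, genes and comparisons were chosen with earlier results of these data known; besides the 6 genes of the rule, a choice of neighbouring genes is named and others are left out, and every member site is named. Python 3.11.15, numpy 2.4.6, pandas 2.3.3, scipy 1.17.1 and matplotlib 3.10.9 were used.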

Additional observations from a re-analysis of the deposited data

How the results depend on the processing

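No paired analysis was possible because neither list gives a value for any sample, so leaving out replicates was not possible either. With no score for a site, there was no stricter threshold to try. Of 32 alternatives, 22 stayed within 1.5 times the count or within the interval of the value, and 10 moved. Membership by overlap, joining sites within 1000 bp and a minimum width of 1000 bp left each of the 4 counts as it was. The members' positions fixed this outcome. No listed site crosses a limit of either interval, the narrowest member is 1020 bp wide, and the closest edges are 1832 bp apart. These settings are counted among the 22, which therefore overstate how stable the counts are. The limits of the intervals mattered. Widening by 500 kb on each side gave 6 p63-closed sites on chromosome 16 in place of 1, and 5 opened and 4 p63-closed on chromosome 6 in place of 3 and 2; opened sites on chromosome 16 went from 14 to 16. The central 500 kb alone held 5 opened and 0 p63-closed sites on chromosome 16, and 1 opened and 1 p63-closed on chromosome 6; a smaller interval holds fewer sites by construction. The share of windows that matched or passed the opened sites of chromosome 16 was 0.165%, went down to 0.0661% with windows shifted by 500 kb, which is within the binomial interval of the first, and up to 0.444% when counted per 1000 catalogue entries. By entries it was 41.8%, in place of 44.1%, for chromosome 6. With neighbours up to 100 kb apart, the largest group on chromosome 16 had 8 sites in place of 5. Depth is unknown, so a region in neither list is not shown to be unchanged.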
